A study of Mus musculus with 26 samples.

Results

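Bivalent chromatin carries H3K4me3, a mark of active start sites laid down by SET1 and MLL complexes, and H3K27me3, a repressive mark of Polycomb repressive complex PRC2, on the same nucleosomes. In mouse embryonic stem cells it is best known at CpG-rich promoters of developmental genes. Sequential chromatin immunoprecipitation (reChIP) recovers such nucleosomes by pulling down one mark and then, from that eluate, the other. The regions described here are the bivalent regions listed in Dppa2/4 double knockout (DKO) clones and not in wild type (WT) clones. A region of the DKO K4-K27 list (H3K4me3 first, H3K27me3 second) was taken when it shared at least 1 bp with a region of the DKO K27-K4 list (the reverse order) and with none of the WT K4-K27 or WT K27-K4 lists. Of 28227 DKO K4-K27 regions, 11308 overlapped a DKO K27-K4 region, and 1083 of these, 9.58%, met the rule and are called knockout-only regions. The other 10225 overlapped a WT region. The same rule with the genotypes exchanged gave 1932 WT-only regions, 16.1% of the 12025 WT K4-K27 regions that overlapped a WT K27-K4 region. The name describes the lists, and the WT values at these regions are given throughout so that a level can be told from a listing.

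DPPA2 and DPPA4 are partner proteins of pluripotent cells that bind chromatin and are required for bivalency at a subset of developmental promoters. The study compared WT clones 57 and 58 with DKO clones 43 and 53, lines made in earlier work from mouse embryonic stem cells and kept on gelatin in serum with LIF, and also profiled the E14 line in 2 replicates. Each clone gave a K4-K27 library, a K27-K4 library and in-line total H3K4me3 and total H3K27me3 libraries, which are the 10% of the first eluate kept back before the second pull-down. Each genotype is therefore represented by 2 clones with 1 library per ChIP, so that differences between clones and between libraries cannot be told apart, and a single IgG–IgG reChIP from WT clone 57 is the background for all of them. All 17 clone libraries were sequenced in one batch.

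Values are log2 RPM (reads scaled to library size) per 1 kb of region. K4-K27 values rested on 9242970 and 10727500 reads in WT clones 57 and 58 and on 10542764 and 12987113 in DKO clones 43 and 53. K27-K4 values rested on 15851030 and 17052421 reads in WT clones and on 23330121 and 17118900 in DKO clones. Both DKO libraries were deeper than both WT libraries in K27-K4 and in total H3K4me3, with 18918369 and 16697635 reads in WT and 27181433 and 24224787 in DKO clones in the latter. Depths overlapped in K4-K27 and total H3K27me3. The in-line totals held between 15601155 and 33848176 reads and IgG–IgG 14904557. All 7 promoters of the pluripotency markers checked, Pou5f1 and Nanog among them, overlapped a total H3K4me3 region in both genotypes. So did 5 of 6 fibroblast marker promoters in WT and 2 of 6 in DKO clones, and 6 of 9 and 5 of 9 promoters of extraembryonic markers. The Dppa2 and Dppa4 promoters kept total H3K4me3 regions in DKO clones, and H3K4me3 at a promoter does not show whether the gene was disrupted, so the genotype labels could not be checked from these files.

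The sequences of the knockout-only regions were examined first, because bivalency is known from CpG-rich DNA. The windows below are the central 300 bases of members at the head of their rankings, on the plus strand of GRCm38 (mm10) as RefSeq gives it, with each CpG in capitals. The first pair had the largest differences between DKO and WT reChIP values and lies away from promoters, the second pair had large differences and lies within 1.5 kb of a start site, and the third pair had the highest DKO values. Windows of the same rankings that contain untranslated exon sequence are not shown.
10287 bp from the Ascl2 start site, chr7:142979551-142979850: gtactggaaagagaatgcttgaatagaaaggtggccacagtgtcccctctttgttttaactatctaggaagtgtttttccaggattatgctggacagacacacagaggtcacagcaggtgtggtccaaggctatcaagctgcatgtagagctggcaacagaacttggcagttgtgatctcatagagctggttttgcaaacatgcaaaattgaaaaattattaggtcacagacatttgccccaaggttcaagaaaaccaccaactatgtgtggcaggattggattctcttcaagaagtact
Gm41230 exon, chr14:99576151-99576450: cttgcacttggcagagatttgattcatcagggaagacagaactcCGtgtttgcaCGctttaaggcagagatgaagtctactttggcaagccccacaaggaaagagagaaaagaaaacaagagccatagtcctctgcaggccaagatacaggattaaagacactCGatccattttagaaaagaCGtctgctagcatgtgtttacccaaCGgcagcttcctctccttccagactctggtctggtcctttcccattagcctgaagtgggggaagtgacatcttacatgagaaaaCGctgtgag
Bag4 and Lsm1 promoters, chr8:25786726-25787025: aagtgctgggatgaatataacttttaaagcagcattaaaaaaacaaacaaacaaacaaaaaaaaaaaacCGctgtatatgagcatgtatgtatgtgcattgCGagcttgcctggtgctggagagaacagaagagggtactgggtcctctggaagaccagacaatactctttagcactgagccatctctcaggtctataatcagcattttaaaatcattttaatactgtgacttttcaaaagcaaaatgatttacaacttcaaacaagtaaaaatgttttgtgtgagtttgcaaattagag
Sema4f promoter, chr6:82940551-82940850: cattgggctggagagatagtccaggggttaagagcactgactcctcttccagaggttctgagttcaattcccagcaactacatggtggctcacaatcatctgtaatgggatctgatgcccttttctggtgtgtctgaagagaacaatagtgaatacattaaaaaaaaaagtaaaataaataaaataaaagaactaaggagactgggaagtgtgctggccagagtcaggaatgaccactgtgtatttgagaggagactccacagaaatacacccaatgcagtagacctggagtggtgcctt
Micall2 promoter, chr5:139735576-139735875: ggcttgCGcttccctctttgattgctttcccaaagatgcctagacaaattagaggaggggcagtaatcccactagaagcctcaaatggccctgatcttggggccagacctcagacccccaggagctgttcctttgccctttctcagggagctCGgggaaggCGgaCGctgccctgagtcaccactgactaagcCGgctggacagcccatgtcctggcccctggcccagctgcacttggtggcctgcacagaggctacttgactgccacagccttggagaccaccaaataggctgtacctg
Hs1bp3 promoter, chr12:8313751-8314050: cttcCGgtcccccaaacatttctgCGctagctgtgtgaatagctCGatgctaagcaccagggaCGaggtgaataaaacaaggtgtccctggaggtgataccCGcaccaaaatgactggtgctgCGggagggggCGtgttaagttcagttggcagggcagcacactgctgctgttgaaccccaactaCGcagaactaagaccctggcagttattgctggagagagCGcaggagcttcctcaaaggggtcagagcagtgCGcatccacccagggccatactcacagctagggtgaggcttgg

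The windows near Ascl2 and Sema4f held 0 CpGs, that of Bag4 and Lsm1 held 2, that of Micall2 5, that of Gm41230 6 and that of Hs1bp3 10. RefSeq soft-masks repeats, and 197 of the 300 bases at Sema4f and 210 of those at Bag4 and Lsm1 were masked, against 0 at Micall2. Over whole regions the median CpG count of the 1083 members was 1.44 per 100 bases (quartiles 0.833 and 2.13), against 3.67 (2.67 and 4.72) for the 10225 DKO regions that overlap a WT region and 3.20 (2.40 and 3.90) for the 1932 WT-only regions. Median GC content was 48.2%, 54.3% and 54.2% in the same order. A GC content over 50% together with an observed to expected CpG ratio over 0.6 was met by 8 members, 0.739%, against 26.2% of DKO regions that overlap a WT region. Few members are promoters, so the sets were also compared by location. Outside promoters and at widths of at most 1050 bp, the median was 1.33 CpGs per 100 bases for 797 members, 1.78 for 1407 DKO regions that overlap a WT region and 2.67 for 942 WT-only regions. Within promoters it was 1.79 for 116 members, 4.13 for 6902 regions and 3.50 for 535 regions. These are descriptions of region sets with no test between them.

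Knockout-only regions were narrow and thinly covered. Their median width was 750 bp (quartiles 450 and 1050 bp), against 2100 bp for the DKO regions that overlap a WT region and 1050 bp for WT-only regions. The smallest width in the list, 300 bp, applied to 193 members, 17.8%, against 1.84% of the regions that overlap WT, and 37 members exceeded 2000 bp. Summed over the 4 DKO reChIP libraries the members held a median of 81 reads (quartiles 58 and 125, range 35 to 1061). Summed over the 4 WT reChIP libraries they held a median of 35 (quartiles 22 and 58, range 0 to 642). The DKO regions that overlap a WT region held medians of 650 and 565 reads. At least 1 WT reChIP library was at 0 reads for 367 members, all 4 were at 0 for 2 members, and at least 1 DKO reChIP library was at 0 for 14 members.

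The values of the reChIP libraries at the members chose them, through the region lists, and are given as a description. The median K4-K27 value over the 1083 regions was -0.47 in WT clone 57 and -0.10 in WT clone 58, and 1.34 in DKO clone 43 and 1.25 in DKO clone 53. The median K27-K4 value was 0.13 and 0.01 in the WT clones and 0.89 and 0.79 in the DKO clones. Both DKO medians lay above both WT medians in each orientation. The IgG–IgG median was -2.31, with 537 of the members at 0 reads in that library. All 4 WT reChIP libraries held at least 1 read and exceeded IgG–IgG at 492 members, 45.4%, and all 4 DKO libraries did so at 1030, 95.1%. Among the 546 members with at least 1 IgG–IgG read these counts were 222 and 504. The 10225 DKO regions that overlap a WT region, 7879 of them overlapping both WT lists, had a median width of 2100 bp. They had higher medians, 2.80 and 2.17 for K4-K27 and 2.05 and 1.85 for K27-K4 in DKO clones 43 and 53. The 1900 of them of at most 1050 bp had a median DKO mean of 1.18 for K4-K27, where the members had 1.18, and of 1.19 for K27-K4, where the members had 0.81.

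**Figure D1:**
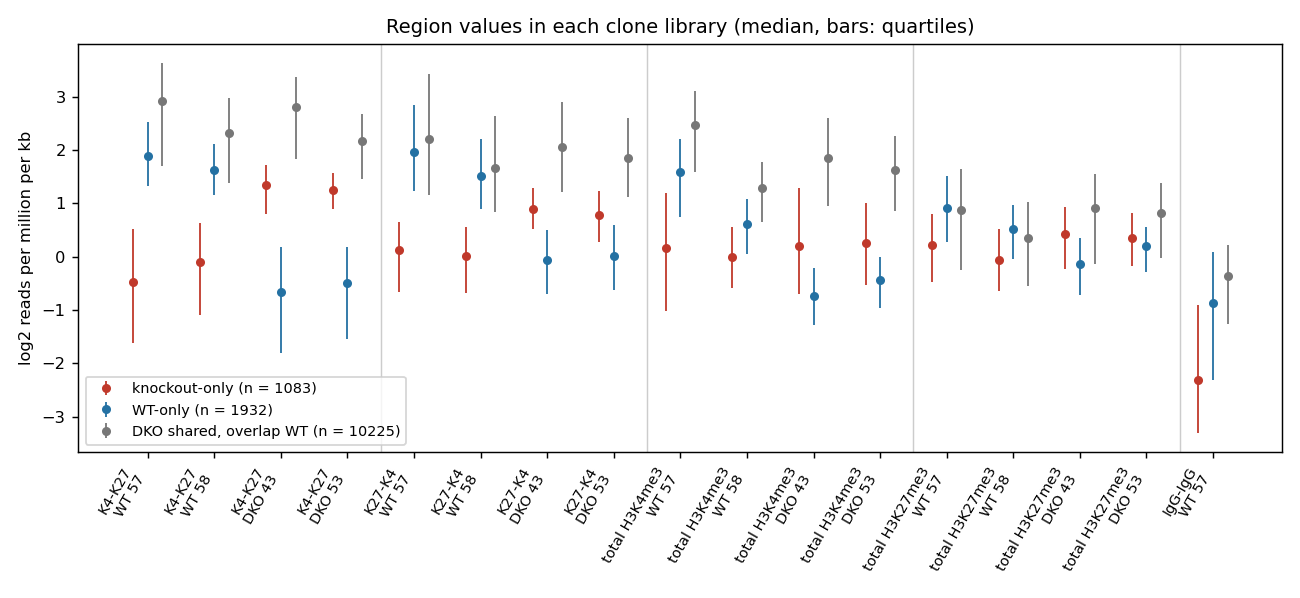
Median log2 RPM per kb of each clone library (points) with the quartiles over regions (bars), for 1083 knockout-only, 1932 WT-only and 10225 DKO shared regions that overlap a WT region. Red points rise from below 0.2 in the WT reChIP libraries to between 0.79 and 1.34 in the DKO reChIP libraries and change little in the in-line totals.

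The mean of the DKO clones minus the mean of the WT clones had a median over the members of 1.56 log2 units for K4-K27 (quartiles 0.90 and 2.30) and 0.82 for K27-K4 (quartiles 0.41 and 1.31). Over all 28227 regions of the table these medians were 0.35 and 0.12, and with each library centred on its own median over the table the members' medians were 1.19 and 0.68. Setting members with 0 reads in both WT libraries, 50 for K4-K27 and 3 for K27-K4, at a bound from 3 reads over the WT pair left medians of 1.56 and 0.82. Without the lowest quartile of values the member medians were 0.88 for K4-K27 (431 members left) and 0.80 for K27-K4 (1033 left). Each of the 4 pairings of a DKO with a WT clone gave a median between 1.31 and 1.62 for K4-K27 and between 0.73 and 0.87 for K27-K4. Both DKO clones lay above both WT clones at 717 members, 66.2%, in K4-K27, where this held for 33.2% of all regions in the table. In K27-K4 this held at 586 members, 54.1%, against 23.3% of all regions. It held in both orientations at 390 members, 36.0%, against 10.2% of all regions. The reverse order, both DKO clones below both WT clones, was found at 1 member in K4-K27, beside 5.98% of all regions, and at 4 in K27-K4, beside 14.4%. The difference exceeded 1 at 755 members in K4-K27 (31.1% of all regions) and at 443 in K27-K4 (13.5%). Since the rule used these contrasts, nothing is read from the excess. At the other end, 405 members, 37.4%, had a difference under 0.5 in at least one orientation, and 107, 9.88%, had a DKO mean below the WT mean in at least one.

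No member was called in K4-K27 by limma with Benjamini-Hochberg adjustment over all 28227 regions (difference over 1 and adjusted p under 0.05), where 0% of all regions were called higher and 0.195% lower. At an unadjusted p under 0.05, 275 members were higher, beside 12.6% of all regions, and 0 lower, beside 1.42%. limma without its trend and robust options called 308 members higher, beside 13.3% of all regions. Leaving out WT clone 57 or 58 gave 25 and 14 calls among members, beside 1.20% and 0.507% of all regions, and leaving out DKO clone 43 or 53 gave 60 and 43, beside 3.07% and 1.89%. In K27-K4 59 members, 5.45%, were called higher, against 0.368% of all regions, and 0 were called lower, against 0.585%. With each library centred on its median over the table or within each chromosome 19 and 18 were higher, beside 0.085% and 0.0921% of all regions. Without the lowest quartile of values 98 were, beside 0.879%. The K27-K4 calls came from small regions, with 11 of the 59 at widths of at least the median member width, and limma without the trend and robust options called 0 members and 0% of all regions, with 207 members higher at an unadjusted p under 0.05, beside 5.80% of all regions. Without DKO clone 43 or 53 it called 3 members higher each time, beside 0.0177% and 0.0142% of all regions. Without WT clone 57 or 58 it called 212 and 221, beside 3.20% and 3.30%, and without WT clone 58 it also called 4 members lower, beside 4.57%. None of these counts is a test of the members, because the lists were drawn from the same libraries.

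**Figure D2:**
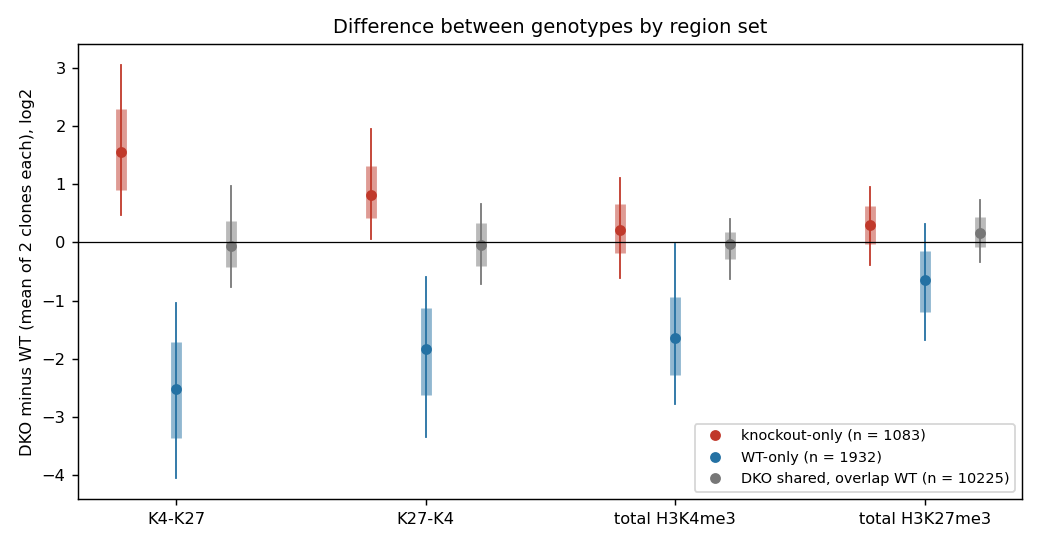
Difference between the mean of the DKO clones and the mean of the WT clones in log2 units for each ChIP. Points are medians over regions, thick bars quartiles and thin bars the 10th to 90th percentiles. Knockout-only regions have medians of 1.56 and 0.82 in the reChIPs and 0.22 and 0.29 in the totals, and WT-only regions have medians of -2.53, -1.83, -1.65 and -0.65.

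WT-only regions, chosen by the mirrored rule, give a scale for these differences. Their medians were -2.53 for K4-K27 and -1.83 for K27-K4, and both WT clones lay above both DKO clones in both orientations at 1521 of 1932, 78.7%. The same share over all WT K4-K27 regions was not computed, so this count has no background beside it. WT-only regions also held more reads, with a median of 165 over the 4 WT reChIP libraries, where the members held 81 over the 4 DKO libraries. Each list was chosen on its own genotype's calls, so the values stand side by side without a test.

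WT values at the members were set beside those of WT shared regions, at a level that is not the listing threshold itself. Member values were read over DKO-drawn regions and WT-listed values over WT-drawn ones. Members were chosen as listed in DKO and not in WT clones, so the shares below follow in part from the rule. The WT shared regions taken were of at most 1050 bp, the upper quartile of member width. Among 2941 such WT-listed regions, the 10th percentile of the WT mean was 0.77 in the K4-K27 order and 0.43 in the reverse order. The WT mean of a member reached that level in both orientations at 54 members, 4.99%, in one orientation at 274, 25.3%, and in neither at 755, 69.7%. Taken singly, 107 members reached it in K4-K27, with 275 in K27-K4. The DKO mean reached the same WT-derived levels at 968 members in K4-K27, with 831 in K27-K4. For WT-only regions, the DKO mean reached the 10th percentile of DKO-listed regions at 6.52% in K4-K27 and 26.6% in K27-K4.

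**Figure D3:**
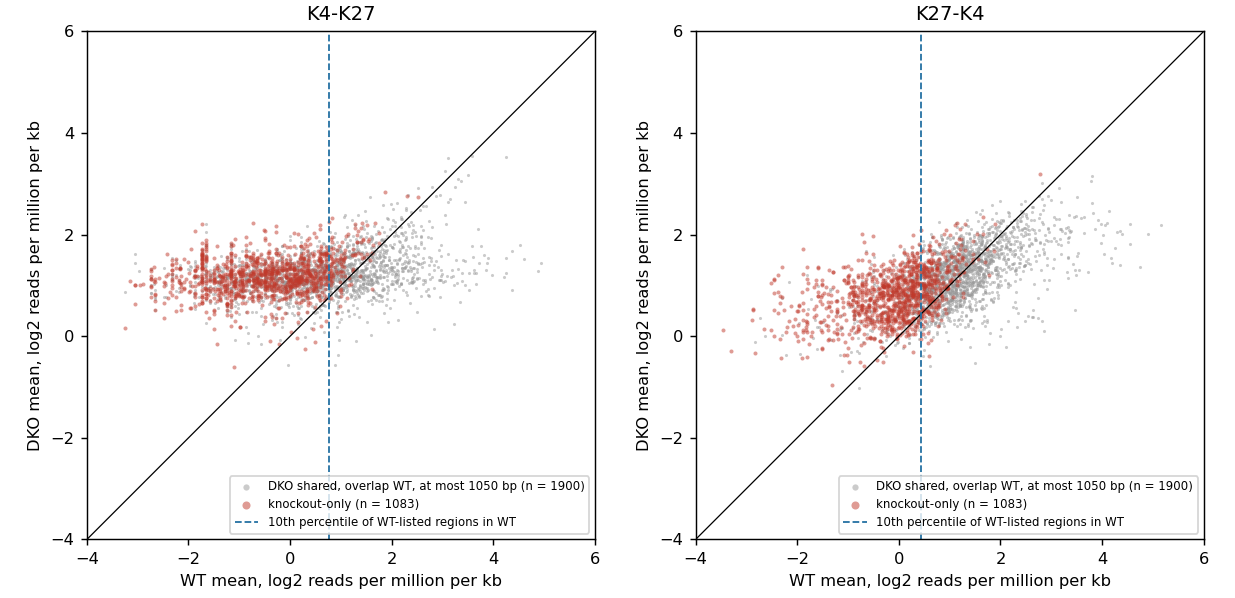
Mean value of the DKO clones against the mean of the WT clones in log2 RPM per kb, for K4-K27 and K27-K4. Red points are the 1083 knockout-only regions and grey points the 1900 DKO shared regions of at most 1050 bp that overlap a WT region. The dashed line is the 10th percentile of WT-listed regions in WT clones, 0.77 and 0.43, and most red points lie to its left while sharing the DKO range of the grey points.

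Regions just inside and just outside the rule are given as values. A WT reChIP region directly abutted 101 members, 387 lay less than 1000 bp from one, and the median gap was 2100 bp. Only 33 members lay more than 50000 bp from a WT region. At the 101 abutting members the median WT mean was -0.40 in the K4-K27 order and 0.18 in the reverse order, and the median difference was 1.57 and 0.68. Just outside the rule, 103 DKO shared regions shared 150 bp, the step of the region grid, with WT regions. Their median WT mean was -0.16 in the K4-K27 order and 0.28 in the reverse order, and their median difference was 1.34 and 0.66. Among the abutting members, the first by position lies in an intron of B3gat2, a glucuronyltransferase gene (chr1:23764651-23765550). Its K4-K27 values were -0.06 and 1.25 in WT clones and 0.92 and 1.26 in DKO clones, and its K27-K4 values were 0.97 and -1.13 in WT and 0.93 and 0.30 in DKO clones, so that the genotypes overlapped in both orientations. At the next, near the Pecr and Tmem169 start sites (chr1:72285301-72286050), reads in K4-K27 were 1 and 10 in WT and 21 and 20 in DKO clones, and in K27-K4 9 and 5 against 30 and 23, without overlap. The member in an exon of Gm31047 (chr1:72948001-72948750) had 0 and 8 against 14 and 19 reads in K4-K27, with 14 and 16 against 45 and 32 in K27-K4. The first by position of the 103 regions just outside the rule, nearest to the Gm4956 start site (chr1:21271201-21272100), had K27-K4 values of 0.17 and 0.23 in WT and -1.22 and 0.96 in DKO clones. The second, nearest to Gm17767 (chr1:51538051-51538650), had K4-K27 values of 1.11 and -1.69 against 0.80 and 1.36. The third, nearest to Fev (chr1:74877001-74877600), shared its 150 bp with the WT K27-K4 list and had K27-K4 values of 0.21 and 0.55 against 0.89 and -0.04.

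The in-line totals ask whether either mark changed at the members, in libraries that the rule did not use, although they come from the same first eluates as the reChIPs. The median total H3K4me3 value was 0.16 and 0.00 in WT clones 57 and 58 and 0.19 and 0.25 in DKO clones 43 and 53. The median total H3K27me3 value was 0.21 and -0.06 in WT and 0.42 and 0.36 in DKO clones. The median difference was 0.22 for total H3K4me3, beside 0.12 over all 28227 regions, and 0.29 for total H3K27me3, beside 0.08. With each library centred on its median over the table these became 0.09 and 0.19, and without each clone in turn they ranged from 0.05 to 0.31 and from 0.14 to 0.42, the lowest of both without WT clone 58. The difference exceeded 1 at 128 members in total H3K4me3 (6.02% of all regions) and at 99 in total H3K27me3 (5.92%). Both DKO clones exceeded both WT clones in total H3K4me3 at 258 members, 23.8%, where 13.3% of all regions did so, and both lay below at 103, 9.51%, where 6.61% of all regions did so. In total H3K27me3 they exceeded both WT clones at 382 members, 35.3%, where 20.8% of all regions did so, and lay below at 86, 7.94%, where 11.6% did so. limma called 0 members higher and 0 lower in total H3K4me3, beside 0% and 0.00354% of all regions, with 0 called without the trend and robust options. With each library centred on its median 18 were higher and 3 lower, beside 1.14% and 1.73% of all regions. With that centring within each chromosome 20 were higher and 1 lower, beside 1.17% and 1.73%. Without WT clone 57 it called 36 higher (2.46% of all regions), without WT clone 58 13 higher and 3 lower (0.825% and 1.90%), and without DKO clone 43 or 53 none. At an unadjusted p under 0.05, 31 members were higher, beside 2.09% of all regions, and 6 lower, beside 1.27%. In total H3K27me3 it called 5 members higher, 0.462%, beside 0.0992% of all regions, and 0 lower, beside 0.0638%. That count became 67 without WT clone 57 (2.30% of all regions), 19 without WT clone 58 (0.457%), 0 without DKO clone 43 (0%) and 1 without DKO clone 53 (0.0319%). The median total H3K4me3 difference of WT-only regions, in the same libraries, was -1.65, with both DKO clones below both WT clones at 79.5%. That share over all WT K4-K27 regions was not computed either.

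The lists of total regions tell whether a member overlapped a listed region of either mark. Absence from a list does not show absence of the mark. The paper reports that few peaks could be called from its E14 in-line totals, although enrichment at bivalent regions remained visible. In the DKO lists, 111 members, 10.2%, overlapped both a total H3K4me3 and a total H3K27me3 region, 340 only H3K4me3, 426 only H3K27me3 and 206 neither. Of the DKO regions that overlap a WT region, 37.4% overlapped both. Over all 28227 regions 14.3% overlapped both, 59.2% only H3K4me3, 9.74% only H3K27me3 and 16.8% neither. In the WT lists, 19 members, 1.75%, overlapped both, 353 only H3K4me3, 224 only H3K27me3 and 487 neither. Over all 28227 regions the shares in the WT lists were 12.9%, 58.2%, 6.59% and 22.3% in the same order. An H3K27me3 region was listed in DKO and not in WT at 329 members, 30.4%, and in WT and not in DKO at 35. For the DKO regions that overlap a WT region these shares were 13.4% and 6.64%, and over all 28227 regions they were 7.77% and 3.18%. An H3K4me3 region was listed in DKO alone at 117 members, 10.8%, and in WT alone at 38, 3.51%. For the DKO regions that overlap a WT region these shares were 2.12% and 7.24%, and over all 28227 regions they were 6.35% and 4.01%. The DKO total H3K27me3 list is longer as a whole, with 32352 regions over 48.7 Mb against 21436 over 32.8 Mb in WT.

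The E14 lists offer another set of cells with both genes intact. An E14 reChIP region in at least one orientation overlapped 599 members, 55.3%, and in both orientations 420, 38.8%, which leaves 484 members outside the E14 lists. Of the DKO regions that overlap a WT region, 97.1% overlapped an E14 region in at least one orientation. E14 regions are broad, covering 98.1 Mb for K4-K27 and 122 Mb for K27-K4 against 43.6 and 50.2 Mb in WT clones. The 420 members in both E14 lists had a median difference of 1.14 for K4-K27 and 0.72 for K27-K4, and the 484 in neither had 1.95 and 0.92. In total H3K4me3 the median WT mean was 0.44 for the former and -0.51 for the latter. Seen over the E14-drawn regions, 160 E14 K4-K27 regions overlapped a member and no WT reChIP region, with median K4-K27 values of -0.09 and 0.61 in the E14 replicates, -0.16 and -0.17 in WT clones and 0.61 and 0.48 in DKO clones. Likewise 269 E14 K27-K4 regions overlapped a member and no WT region, with medians of 0.40 and 1.01 in E14, -0.17 and -0.27 in WT and 0.43 and 0.38 in DKO clones. At these E14 regions the median difference between DKO and WT clones was 0.63 in the K4-K27 order and 0.61 in the reverse order. A further 260 and 281 E14 regions overlapped both a member and a WT reChIP region, and their median differences were 0.11 and 0.14. The E14 replicates were sequenced in other batches than the clones, so their levels and the batch cannot be told apart.

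Knockout-only regions lay mostly away from promoters. Within 1.5 kb of a RefSeq start site lay 116 members, 10.7%, against 67.5% of the DKO regions that overlap a WT region and 27.7% of WT-only regions. Another 196 overlapped an exon, 329 lay in introns and 442, 40.8%, between genes. The median distance to a start site was 13644 bp. The 116 promoter members served 121 genes, and at 78 of these genes a WT reChIP region lay within 1.5 kb of the start site, which leaves 43 promoters with no listed WT reChIP region. Promoter members had a median difference of 1.26 in K4-K27, 0.77 in K27-K4 and 0.30 in total H3K4me3. Their total H3K4me3 median was 0.62 in WT and 1.08 in DKO clones.

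Developmental gene lists had few members at their promoters, as did all genes. Over all 26132 RefSeq genes, 121 had a member at the promoter, 7455 a DKO region that overlaps a WT region and 550 a WT-only region. With so low a share of members, a count of 0 in a short list says little. Of 39 Hox cluster genes, which pattern the body axis, 37 had a DKO region that overlaps a WT region at the promoter and 0 had a member. The counts were 15 and 0 of 19 Sox genes, 29 and 0 of 44 forkhead genes, 37 and 0 of 44 Wnt pathway genes, and 33 and 0 of 45 BMP and TGF-beta pathway genes. Of 89 genes of the Pax, Nkx, Irx, Lhx and sine oculis families, which encode developmental transcription factors, 65 had a DKO region that overlaps a WT region and 1, Nkx6-3, a member. Members also lay at promoters of Hes3 and Fgf22 among 52 FGF, hedgehog and Notch genes, Sema4f among 71 axon guidance genes, Kcnj9 and Scn2a among 209 neuronal channel and receptor genes, and Lrrtm3 and Pcdhb8 among 131 adhesion genes. Of 84 germline and 2-cell genes 0 had a member and 11 had a WT-only region. Imprinted, chemosensory receptor, ribosomal protein, pluripotency and Polycomb and Trithorax gene lists had 0 members at their promoters.

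Among these developmental promoters, Hes3, a bHLH repressor of the Notch pathway, had the widest member (chr4:152292451-152294850, 2400 bp, 789 bp from the start site and abutting a WT region). Its K4-K27 reads were 2 and 18 in WT clones and 64 and 70 in DKO clones, and its K27-K4 reads were 37 and 23 against 109 and 92. The genotypes did not overlap in either orientation. Its total H3K4me3 values were 0.40 and -0.42 in WT and 0.38 and -0.50 in DKO clones, which overlap, and its total H3K27me3 values were -0.42 and -0.14 against 0.59 and 0.89. The limma difference of 1.02 ± 0.44 (SE) in total H3K27me3 did not pass adjustment (adjusted p = 0.544). Nkx6-3, a homeobox factor of the gut, had a member of 1650 bp (chr8:23153251-23154900) with WT values already at 1.11 and 1.02 in K4-K27, against 1.69 and 1.36 in DKO clones. In the reverse order they were 1.67 and 1.65 against 2.05 and 1.97. Fgf22, a synaptic growth factor gene, had K4-K27 values of 1.57 and 0.90 in WT and 2.12 and 1.33 in DKO clones, which overlap, and K27-K4 values of 0.97 and 0.76 against 1.79 and 1.45, which do not. At Kcnj9, a potassium channel subunit gene, WT clone 57 held as many K4-K27 reads, 16, as DKO clone 43, and WT clone 58 held 2. Its K27-K4 reads were 15 and 5 in WT against 44 and 21 in DKO clones, without overlap. At Scn2a, a sodium channel gene, the K4-K27 reads were 0 and 14 in WT against 15 and 11 in DKO clones, and the K27-K4 reads were 5 and 11 against 19 and 7. Differences were between 0.46 and 1.79 at Lrrtm3, a synapse organiser, and Pcdhb8, a protocadherin, and neither was called.

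The largest differences came from regions with very few WT reads. The score used to rank members was the smaller of the K4-K27 and K27-K4 differences. Since 0 reads were entered as 0.9 reads, scores of members at 0 depend on that choice. The first, in an exon of Wdsub1, a WD repeat and U-box gene (chr2:59852551-59852850, coding and untranslated sequence), held 0 and 0 reads in WT and 9 and 12 in DKO clones in K4-K27. In K27-K4 it held 0 and 0 against 9 and 13. With the WT pair at a limit of 3 reads, DKO was at least 5.94-fold higher in K4-K27 and at least 5.97-fold higher in K27-K4. Here and below such folds bound the WT reads only. They take the DKO reads as counted and leave out the spread between clones. The ranking used the same values, so the folds are descriptions of members picked for large differences. Its total H3K4me3 reads were 2 and 3 in WT and 2 and 7 in DKO clones and its total H3K27me3 reads 3 and 5 against 4 and 10, and no total region of either genotype overlapped it. The second, the window printed near Ascl2, a trophoblast bHLH factor, held 0 and 0 against 17 and 5 reads in K4-K27, with 1 and 2 against 13 and 13 in K27-K4. It was at least 6.22-fold higher in K4-K27, and its total H3K27me3 values were 1.44 and 0.58 in WT and 0.13 and 0.12 in DKO clones, a difference of the opposite sign that limma did not call (adjusted p = 0.654). The third, printed above from an exon of the predicted gene Gm41230, held 0 and 0 against 9 and 28 reads in K4-K27, at least 10.5-fold higher, and 0 and 9 against 19 and 32 in K27-K4.

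The member at the Zbtb38 promoter (chr9:96718051-96718350), a gene for a protein that binds methylated DNA, held 1 and 0 reads in WT and 4 and 14 in DKO clones in K4-K27, with 0 and 1 against 24 and 8 in K27-K4. Its total H3K4me3 values were 0.50 and 0.68 in WT and 2.29 and 1.14 in DKO clones, without overlap, and it was listed for total H3K4me3 in both genotypes. A member 44201 bp from the Zfp281 start site (chr1:136579951-136580700) had total H3K4me3 reads of 15 and 8 in WT and 40 and 34 in DKO clones, while its K4-K27 reads were 11 and 0 against 35 and 17. The member in Gm34099 (chr8:57413851-57414150) was at 0 in all 4 WT reChIP libraries and held 2 and 18 K4-K27 reads in DKO clones 43 and 53, at least 5.66-fold higher than the limit, and 13 and 13 in K27-K4, at least 7.05-fold higher. Those in introns of Frmd4a, Rapgef5 and Tenm3 and one 908561 bp from the 1190028D05Rik start site completed the 10 with the highest scores, which ran from 3.30 to 2.44. None of the 10 overlapped an E14 K4-K27 region, and 3 overlapped an E14 K27-K4 region.

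**Figure D4:**
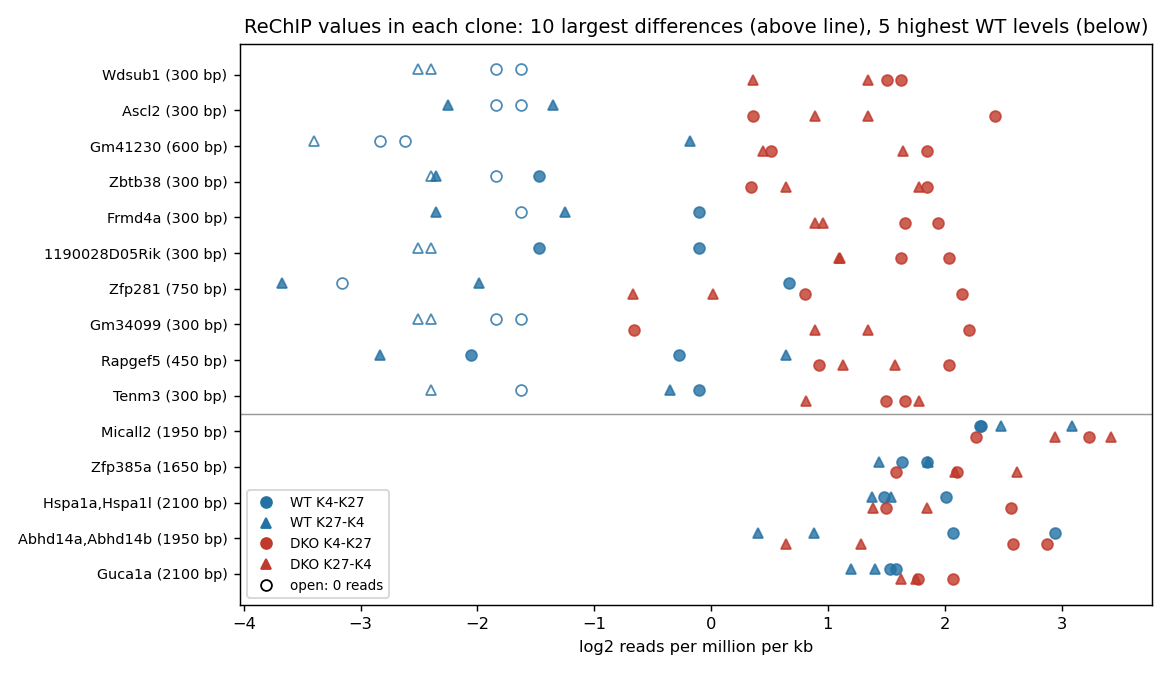
Log2 RPM per kb of each reChIP library at the 10 members with the largest differences (above the line) and the 5 with the highest WT values (below it), named by promoter, overlapping or nearest gene. Open symbols mark libraries with 0 reads, entered as 0.9 reads. Above the line the WT symbols of each orientation lie left of the DKO symbols. Below it they overlap in K4-K27 at the first 4 members and not at Guca1a.

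At the other extreme stood the 5 members with the highest WT values. The Micall2 promoter, of a gene for a RAB and actin adaptor (chr5:139734751-139736700, 38100 bp from any WT reChIP region), had the highest mean value of all members in both genotypes. Its K4-K27 values were 2.30 and 2.31 in WT clones and 3.24 and 2.27 in DKO clones, and its K27-K4 values were 3.09 and 2.48 against 3.42 and 2.94. The genotypes overlapped in both orientations. It was listed for both totals in WT clones, for total H3K27me3 and not total H3K4me3 in DKO clones, and in both E14 orientations, with 53 IgG–IgG reads. Its total H3K4me3 values were 2.04 and 1.20 in WT and 1.80 and 1.18 in DKO clones. Its total H3K27me3 values were 1.88 and 1.43 against 2.12 and 1.90. At Zfp385a, a zinc finger gene, K4-K27 values were 1.85 and 1.64 in WT and 2.11 and 1.58 in DKO clones, which overlap, and K27-K4 values were 1.86 and 1.43 against 2.62 and 2.09, which do not. At the divergent promoters of Hspa1a and Hspa1l, genes of the HSP70 family, K4-K27 reads were 78 and 63 against 131 and 77, and at those of Abhd14a and Abhd14b the K4-K27 values were 2.95 and 2.07 against 2.88 and 2.59. In the reverse order the Abhd14a and Abhd14b member had 0.88 and 0.40 in WT and 1.29 and 0.64 in DKO clones, with an IgG–IgG value of 1.14. The last of this group overlapped exons of Guca1a, a photoreceptor calcium sensor, at 1.58 and 1.53 against 2.07 and 1.77, the only one of the 5 whose genotypes did not overlap in K4-K27. These 5 members carried between 40 and 64 IgG–IgG reads, where the median member carried 1.

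Of the 5 members with the highest DKO values, Ccdc65, a cilium gene, Hs1bp3 and Ypel4 differed more between the genotypes than Micall2 and Zfp385a. Ccdc65 (chr15:98707801-98709000) had K27-K4 values of 1.18 and 1.10 in WT and 2.08 and 2.39 in DKO clones and K4-K27 values of 1.78 and 0.77 against 2.32 and 2.08. Hs1bp3 (chr12:8313151-8314650) had K4-K27 values of 2.47 and 1.28 against 3.33 and 2.35, which overlap, and K27-K4 values of 0.18 and 1.08 against 1.57 and 1.29, which do not, with an IgG–IgG value of 1.01. It had high total H3K4me3 in every clone, from 2.13 to 3.35. Ypel4 (chr2:84733351-84735450) had K4-K27 values of 0.72 and 1.34 against 1.68 and 2.03.

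The widest member spanned 4350 bp over exons of Setd1b, which encodes an H3K4 methyltransferase (chr5:123156601-123160950), 14408 bp from the nearest start site, and held 105 IgG–IgG reads, the most of any member. Its K4-K27 reads were 86 and 49 in WT and 244 and 199 in DKO clones, and its K27-K4 reads were 100 and 134 against 203 and 170. Total H3K4me3 moved with them, at 196 and 103 reads in WT and 818 and 512 in DKO clones, a difference of 1.66 ± 0.72 (SE, limma, adjusted p = 1.00), and it was listed for total H3K4me3 in DKO and not in WT clones. Its total H3K27me3 values were 0.07 and -0.04 against -0.70 and -0.31. The next widest lay 94260 bp from Mir148a (4050 bp, K4-K27 reads 78 and 66 against 180 and 187), at Dlg4, which encodes PSD-95 (3600 bp, 57 and 71 against 143 and 103), at Map1a, a microtubule protein gene (3600 bp, 74 and 103 against 166 and 203), and at Cirbp, a cold-inducible RNA-binding protein gene (3300 bp, 47 and 37 against 100 and 118). The genotypes did not overlap in K4-K27 at any of these 4, and at Cirbp they overlapped in K27-K4.

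Promoter members with large differences included Oxr1, an oxidation resistance gene (chr15:41830651-41831550), with 5 and 3 K4-K27 reads in WT and 19 and 31 in DKO clones and 0 and 2 against 24 and 16 in K27-K4. It was listed for total H3K4me3 in both genotypes and held between 0 and 3 total H3K27me3 reads in every clone. The region at Bag4, an HSP70 co-chaperone gene, and Lsm1, an mRNA decay gene, whose central window is printed above, had 1 and 5 against 18 and 19 K4-K27 reads and 3 and 2 against 11 and 19 in K27-K4, again with total H3K4me3 listed in both genotypes. The one at Sema4f, a guidance cue, printed above, held 0 and 3 against 14 and 8 reads for K4-K27, with 3 and 3 against 11 and 18 for K27-K4. Its total H3K4me3 reads were 12 and 4 in WT and 8 and 0 in DKO clones. The remaining ones lay at 2200002J24Rik, with 2 and 9 against 17 and 21 K4-K27 reads, and at Slc46a3, a lysosomal transporter gene, with 3 and 7 against 15 and 27. At Slc46a3 the K27-K4 values overlapped between the genotypes, at 0.75 and -2.35 in WT and 1.42 and 0.51 in DKO clones.

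The 5 members called higher in total H3K27me3 were all 300 or 450 bp wide and outside promoters. That in an intron of Cfap43, a cilium gene (chr19:47812801-47813100), held 8 and 1 reads in WT and 19 and 27 in DKO clones, a difference of 2.45 ± 0.43 (SE, limma, adjusted p = 0.000137), while its K4-K27 reads were 10 and 2 against 8 and 9. The total H3K27me3 difference in Cfap43 was 3.83 without WT clone 57 and 1.07 without WT clone 58. It was 2.26 without DKO clone 43 and 2.64 without DKO clone 53. The others were at chr1:72232951-72233400, with 3 and 2 against 12 and 29 total H3K27me3 reads, in Gm26728 with 3 and 2 against 13 and 18, in Gm51452 with 4 and 3 against 17 and 23, and 26623 bp from Smgc with 6 and 5 against 26 and 27. Adjusted p-values of these 4 were between 0.00467 and 0.0466 by limma. The 2 in Gm26728 and Gm51452 held 0 reads in both WT K4-K27 libraries against 22 and 27 reads over the DKO pair. All 5 calls were lost in limma without the trend and robust options and without DKO clone 43. Without DKO clone 53 that in Cfap43 was kept (adjusted p = 0.0278) and the other 4 were lost, and without WT clone 58 that in Cfap43 was lost (adjusted p = 0.0515). With each library centred on its median those at Gm51452 and Smgc were lost (adjusted p = 0.0527 and 0.109), and with that centring within each chromosome that at Smgc was (adjusted p = 0.106).

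Chromosome 8 held more members than its share, with 105, 9.70%, against 5.80% of the DKO regions that overlap a WT region. Over regions of the total H3K27me3 lists, the in-line H3K27me3 values of chromosome 8 stood 0.14 and 0.23 log2 units above the median chromosome in DKO clones 43 and 53 relative to WT clones, and over total H3K4me3 regions 0.12 and 0.16. Chromosome 12, with 5.72% of members against 4.55%, was higher in clone 43 by 0.20 and 0.14 and in clone 53 by 0.03 and -0.02. Outside chromosomes 8, 12 and X the shifts lay between -0.10 and 0.08. Whether these shifts took part in the members' listing was not tested. The median K4-K27 difference was 1.60 for the 105 members of chromosome 8 and 1.56 for the other 978.

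**Figure D5:**
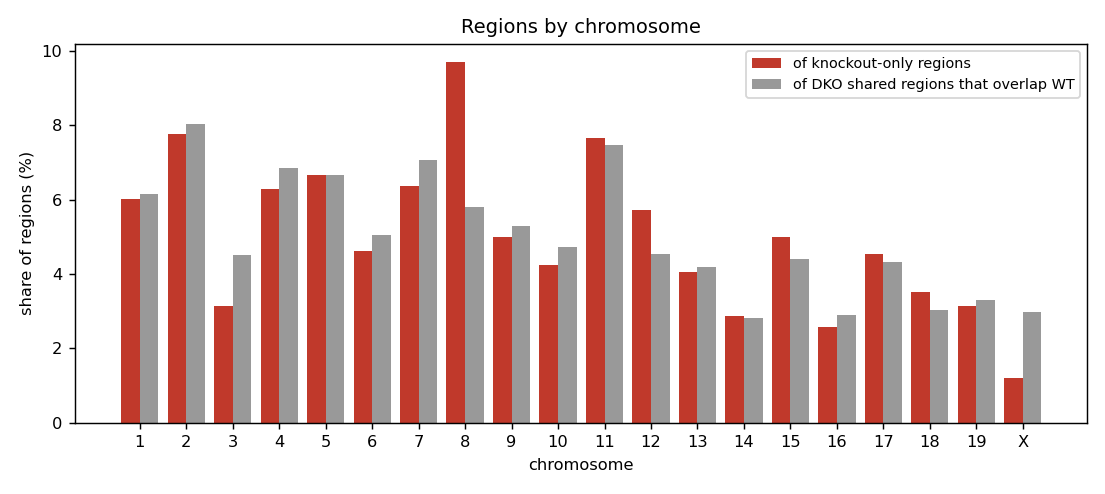
Share of regions on each chromosome in percent, for 1083 knockout-only regions (red) and 10225 DKO shared regions that overlap a WT region (grey). Chromosome 8 holds 9.70% of the former and 5.80% of the latter.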

How the data were processed

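ReChIP and in-line total ChIP libraries of WT and DKO clones were used, with the region lists of the E14 line. The authors trimmed reads (Trim Galore 0.6.6), aligned them to mm10 (BWA 0.7.13), marked duplicates (Picard 2.6.0) and quantified regions in SeqMonk, and the values that the authors deposited are log2 RPM per 1 kb of region, with duplicates kept. The H3K4me3 antibody has been reported to detect H3K4me2 as well, so some signal may come from that mark. The study's methods describe peak calls by EPIC2 per replicate against IgG–IgG, with a bin size that differs from the 150 bp grid on which the edges of these tables lie, so whether those calls made these tables could not be settled. The tables hold 32 columns of no sample of this series, which were not used. Each value corresponds to a whole number of reads within 0.05 read, with 0 entered as 0.9, so reads are given beside values. Counting error covers reads and not molecules, since duplicates were kept.

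Overlap meant 1 bp shared. Genes, exons and start sites came from RefSeq on GRCm38.p6, and a promoter reached 1.5 kb either side of a curated start site. DKO and WT clones (2 each) were compared per region with limma 3.58.1 in R 4.3.3 (eBayes, trend and robust options on) for all 28227 DKO K4-K27 regions, with Benjamini-Hochberg adjustment, at a log2 difference over 1 and an adjusted p under 0.05. The fit was first tested on simulated data. Other calculations used Python 3.11.15, numpy 2.4.6 and pandas 2.3.3. Replicates are separate clones with 1 library per ChIP, so p-values rest on the spread between clones and between libraries together. limma also moderates the variance of each region by that of the other regions.

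Members were named by rank: the 10 with the highest score, 5 with the highest DKO and 5 with the highest WT reChIP means, the 5 widest, 5 further promoter members by score, those called in a total, 3 on each side of the rule's edge, and those at promoters of the gene lists. The members, lists and rules were chosen with earlier results of these data known. Alternatives covered the overlap rule, library centring, a filter on low values, the variance model and each clone left out, and, chosen after seeing the data, chromosome 8 left out and narrow members left out.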

Additional observations from a re-analysis of the deposited data

How the results depend on the processing

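The number of knockout-only regions was 1083, and 994 and 923 with 50% of the shorter region shared or starting from the K27-K4 list, but 696 when a WT region within 1000 bp also excluded and 484 when an E14 region did. Counts of members called higher moved most. For K4-K27 they were 0 in the fit described, 308 with plain eBayes (trend and robust options both off) and 14 to 60 without each clone in turn. For K27-K4 they were 59, then 19 and 18 with each library centred on its median over the table or within each chromosome, 98 with the lowest quartile of values left out, 0 with plain eBayes, 11 among members of at least the median width, and 3 to 221 without each clone. For total H3K4me3 they were 0, beside 0% of all regions, then 18 and 20 with the centrings, beside 1.14% and 1.17%. For total H3K27me3 they were 5, then 3 with library centring, 0 with plain eBayes, 0 among the wider members and 0 to 67 without each clone. Members called lower were 0 in every fit described, with 3 and 1 in total H3K4me3 and 1 and 1 in total H3K27me3 under the centrings, and 0 to 4 in K27-K4, 0 to 3 in total H3K4me3 and 0 to 2 in total H3K27me3 without each clone. A left-out clone leaves its genotype with 1 sample, which is assumed to vary like the others. The cause of these changes was not tested.

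The median differences kept their sign under every alternative. For the reChIPs this follows in part from the rule, which used the same libraries, so it is not a test of the members. For K4-K27, 1.56 became 1.19 and 1.17 with the centrings, 0.88 without the lowest quartile of values (431 members left), 1.27 among wider members and 1.30 to 1.57 without each clone. For K27-K4, 0.82 became 0.68 and 0.69, 0.75 among wider members and 0.71 to 0.94 without each clone. Leaving out chromosome 8 moved no count of calls and no median by over 1.5 times. Leaving out chromosome 8 and leaving out narrow members were chosen after seeing the data. Among named members, 36 of the recomputed K27-K4 calls and 27 of those in total H3K27me3 stayed past the threshold, while 32 and 18 did not. No paired analysis was possible because WT and DKO clones share no replicate number. Members hold few reads, which limits single regions.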
